A study of Mus musculus with 10 samples.

Results

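The microRNA genes of B16OVA melanoma cells that stood above the dim end of the array are described here. B16OVA is a C57BL/6 mouse melanoma line that carries chicken ovalbumin (OVA) as a model antigen. A gene was taken when its transcript cluster (the array's unit for a gene) carried 1 gene symbol that starts with Mir and a digit, and when its mean log2 intensity over the 10 arrays was at least 5.5 (an intensity of 45.3). The transcript cluster with the highest mean stood for a gene that had several. That left 58 of 477 microRNA genes with a symbol of their own. The genes were selected on their mean level over all 10 arrays, so these levels are a description. The mean over the 10 arrays was between 5.52 and 12.29, with a median of 6.16, and 36 of the 58 had a mean of at least 6. Just inside the threshold were Mir139 (5.55), Mir760 (5.53) and Mir16-1 (5.52). Just outside it were Mir666 (5.48), Mir149 (5.47) and Mir1933 (5.47). A further 141 transcript clusters held a microRNA among several symbols and were not taken.

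The 10 arrays were 1 each of the parent line and of 9 lines established from B16OVA tumours, which fall into 3 groups of 3. NIMM lines 1, 3 and 4 came from naive B6 mice without immunization. IMM lines 1, 2 and 8 came from OVA-immunized wild-type mice, and GKO-IMM lines 1, 2 and 3 from OVA-immunized mice that lack interferon-γ. All lines carry OVA, and the ages of the mice are not given. No line came from a naive mouse without interferon-γ, so immunization and the lack of interferon-γ cannot be told apart in GKO-IMM against NIMM. Each line has 1 array, so that p-values measure the spread between lines, and precision is limited by how few arrays there are. RNA is of whole cultures, in which fewer cells with a transcript and less transcript per cell cannot be told apart. The melanocyte markers fit the label: 7 of 7 were at mean log2 intensities from 9.31 to 12.92, and none passed a test among the groups. Of the markers of other cell types, those of leukocytes had means from 4.41 to 6.04, with the macrophage marker Cd68 above 5.5 and the others under it, those of endothelium from 4.83 to 5.15 and those of fibroblasts from 4.55 to 5.48. The summed intensity of the 5 leukocyte markers on the array was 152 to 181 in the 9 established lines and 247 in the parent, where Cd68 was at 7.19 against 5.56 to 6.29 in the established lines.

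MicroRNA genes are transcribed as long primary transcripts, on their own or within the introns of other genes. Drosha and Dgcr8 cut out a hairpin, Dicer cuts the hairpin to a short duplex, and an Argonaute protein carries 1 strand, which pairs through its seed with messenger RNAs and lowers their translation or stability. The array reads RNA that contains the hairpin or its surroundings. It does not read the mature microRNA by itself, so a level here is no measure of microRNA activity.

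The mature sequences of 5 of the 6 genes that passed a test among the groups are given here for reference, with the seed (bases 2 to 8) in capitals. The tests used array levels and not these sequences. Sequences and positions are those of RefSeq on build GRCm38.p6, whose gene table held 52 of the 58 genes, with a mature sequence for 45 and a hairpin for 42. Mir187, the other gene that passed, is named only.
mmu-miR-673-5p: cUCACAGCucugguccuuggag
mmu-miR-673-3p: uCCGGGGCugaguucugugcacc
mmu-miR-5125: uCUGCCUGggauuuccuugu
mmu-miR-1956: aGUCCAGGgcugagucagcgga
mmu-miR-210-5p: aGCCACUGcccaccgcacacug
mmu-miR-210-3p: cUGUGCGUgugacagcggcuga
mmu-miR-3058-5p: uCAGCCACggcuuaccuggaaga
mmu-miR-3058-3p: uUCCUGUCagccgugggugcc
No seed occurred in more than 1 of these 5 genes. In the RefSeq table the seed of miR-673-5p was shared with miR-6985-3p alone and that of miR-3058-3p with miR-7681-5p alone. The other 6 seeds shown each belonged to 1 gene.

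The hairpins of these genes, which the array's transcript clusters stand for, are shown with the mature strands in capitals.
Mir673: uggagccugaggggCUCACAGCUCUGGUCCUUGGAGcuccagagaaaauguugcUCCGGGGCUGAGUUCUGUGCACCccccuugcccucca
Mir5125: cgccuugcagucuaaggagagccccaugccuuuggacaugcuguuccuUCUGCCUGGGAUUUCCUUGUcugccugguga
Mir1956: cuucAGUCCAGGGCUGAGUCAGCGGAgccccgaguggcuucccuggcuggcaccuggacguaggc
Mir210: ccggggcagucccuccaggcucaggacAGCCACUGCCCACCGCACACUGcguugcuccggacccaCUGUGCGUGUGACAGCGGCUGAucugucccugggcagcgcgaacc
Mir3058: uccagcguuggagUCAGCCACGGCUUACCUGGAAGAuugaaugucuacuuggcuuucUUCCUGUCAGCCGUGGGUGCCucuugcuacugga
Mir673 lies at chr12:109571990-109572080 on the plus strand. Mir5125 lies at chr17:23823291-23823369 on the plus strand, within Srrm2. Mir1956 lies at chr3:138526421-138526485 on the plus strand, within Eif4e. Mir210 lies at chr7:141221384-141221493 on the minus strand, in no other gene of the table. Mir3058 lies at chr10:95559231-95559321 on the minus strand, within Nudt4.

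A mature sequence was at hand for 45 of the 58 genes, 68 sequences in all. These held 66 different seeds, so that 2 seeds were shared by a pair of genes each. Mir181c and Mir181d, neighbours on chromosome 8 whose family is known from lymphocyte development, share ACAUUCA. Mir3473d and Mir674 share CACUGAG.
mmu-miR-181c-5p: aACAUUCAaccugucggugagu
mmu-miR-181d-5p: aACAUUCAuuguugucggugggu
mmu-miR-3473d: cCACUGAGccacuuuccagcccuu
mmu-miR-674-5p: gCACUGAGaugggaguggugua
A further 5 of these 45 genes, Mir194-1, Mir344d-2, Mir16-1, Mir692-1 and Mir680-2, encode a mature microRNA identical to that of another gene. For them, a level here belongs to 1 gene locus and not to the microRNA.

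The first question was which microRNA genes differed between lines from immunized wild-type mice and lines from naive mice. Mir673 and Mir1956 were higher in the IMM lines, by 1.48-fold and 1.36-fold, and Mir210 was lower, by 1.34-fold. These 3 of 58 (5.17%) passed, with an adjusted p (Benjamini-Hochberg) under 0.05 in limma's model across 16375 genes, against 0.427% of all genes tested. The median difference over the 58 genes was 0.0048 on the log2 scale, against 0.02 over all genes tested, with 29 above and 29 below 0. The count of 3 became 1 without NIMM 1, NIMM 3, IMM 2, IMM 8, GKO-IMM 1 or GKO-IMM 3, each left out singly, while the share of all genes tested that passed was then 0.202%, 0.128%, 0.238%, 0.134%, 0.195% and 0.147%.

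Mir673 belongs to the imprinted Dlk1-Dio3 region, whose maternal chromosome gives rise to a long series of microRNAs. Its log2 intensity was 6.42, 6.37 and 6.39 in NIMM lines 1, 3 and 4, then 6.84, 6.98 and 7.05 in IMM lines 1, 2 and 8, and 6.62, 6.80 and 6.63 in GKO-IMM lines 1, 2 and 3. The parent was at 6.54. The 3 groups did not overlap, with the GKO-IMM lines between the other two, and the parent lay between the NIMM and the GKO-IMM lines. The group means were 6.39 ± 0.03, 6.96 ± 0.11 and 6.68 ± 0.10 (SD, n = 3 each, limma). IMM minus NIMM was 0.56 ± 0.07 (SE), with an adjusted p of 0.0112. IMM minus GKO-IMM was 0.27 ± 0.07 (adjusted p 0.092) and GKO-IMM minus NIMM 0.29 ± 0.07 (adjusted p 0.143). Those comparisons did not pass, and each shares its lines with another of the 3. The IMM lines also stood apart from the mean of the other groups, by 0.42 ± 0.06 (adjusted p 0.014).

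Mir1956 was at 7.38, 7.11 and 7.35 in NIMM lines 1, 3 and 4, at 7.65, 7.77 and 7.76 in IMM lines 1, 2 and 8, and at 7.69, 7.77 and 7.71 in GKO-IMM lines 1, 2 and 3. The parent was at 7.38. All 6 lines from immunized mice lay above the parent and the NIMM lines, with IMM and GKO-IMM intermixed. The difference from NIMM was 0.45 ± 0.08 for IMM (adjusted p 0.0414) and 0.44 ± 0.08 for GKO-IMM (adjusted p 0.0729), with the NIMM lines shared by both. The IMM call was kept under 6 of 18 alternative settings, with adjusted p between 0.0327 and 0.31. Of the 9 lines left out singly, only the omission of NIMM 4 left the gene past the threshold.

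Mir210 encodes the microRNA best known for its induction by hypoxia through hypoxia-inducible factors. Its level was 6.77, 6.54 and 6.67 in NIMM lines 1, 3 and 4, then 6.26, 6.31 and 6.13 in IMM lines 1, 2 and 8, and 6.17, 6.26 and 6.32 in GKO-IMM lines 1, 2 and 3, with the parent at 6.67. All 6 lines from immunized mice lay below the parent and the NIMM lines, and IMM and GKO-IMM overlapped. Mir210 fell by 0.42 on the log2 scale in IMM against NIMM, with an SE of 0.08 and an adjusted p of 0.0464. GKO-IMM minus NIMM was -0.41 ± 0.08, with an adjusted p of 0.0799. The IMM call was kept under 3 of 18 alternative settings (adjusted p 0.0361 to 0.343) and was lost without any single line of the 9.

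**Figure D1:**
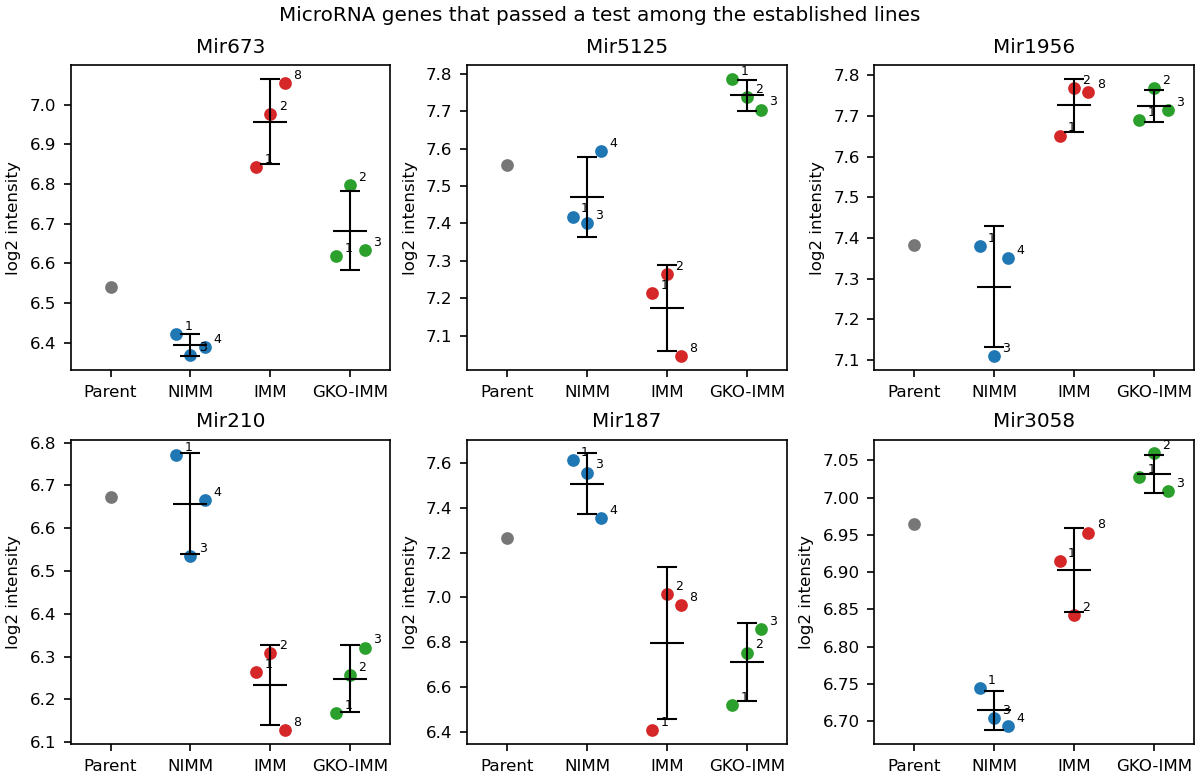
Log2 intensity of the 6 microRNA genes that passed any test, by group, with 1 point per line numbered as in the labels and the mean ± SD of each group of 3 as a bar. Mir673, Mir5125 and Mir3058 had 3 separate groups, with the lowest values of Mir5125 in IMM and those of Mir673 and Mir3058 in NIMM. Mir1956, Mir210 and Mir187 had overlapping IMM and GKO-IMM lines, together on 1 side of the NIMM lines.

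With the 3 genes that passed counted, the IMM and NIMM lines did not overlap for 20 of the 58 genes (34.5%), against 18.5% of all genes tested. Of these, 11 were higher and 9 lower in IMM, where 11.3% and 7.25% of all genes tested were. An unadjusted p under 0.05 was found for 22, where 14% of all genes tested had one. The smallest p-values among the others that were higher belonged to Mir2137 and Mir3091. Mir2137, within Zfp185 on the X chromosome, had group means of 5.96 ± 0.19 in NIMM, 6.56 ± 0.24 in IMM and 6.30 ± 0.14 in GKO-IMM (SD), and an adjusted p of 0.0699 for IMM against NIMM. Its 3 NIMM lines were all below the other 6 lines. Mir3091, within the ribosomal protein gene Rps21, stood at 5.89 ± 0.08 in NIMM and 6.33 ± 0.05 in IMM (adjusted p 0.0793). Among those with lower values, Mir187 had the widest difference of the 58 genes and is described with the third comparison. Mir449b belongs to a family known from multiciliated cells, and was at 11.45 ± 0.08 in NIMM, 11.16 ± 0.09 in IMM and 11.13 ± 0.09 in GKO-IMM. Its difference of -0.28 ± 0.07 (SE) in IMM did not pass (adjusted p 0.142). Mir449a and Mir449c, its neighbours within 10 kb, were dim, with means of 4.78 and 4.41 over the 10 arrays. Cdc20b, which encloses Mir449b, was at 5.03 in NIMM, 5.03 in IMM and 5.16 in GKO-IMM. Why Mir449b was so much brighter was not tested, so its level may not stand for the locus.

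**Figure D2:**
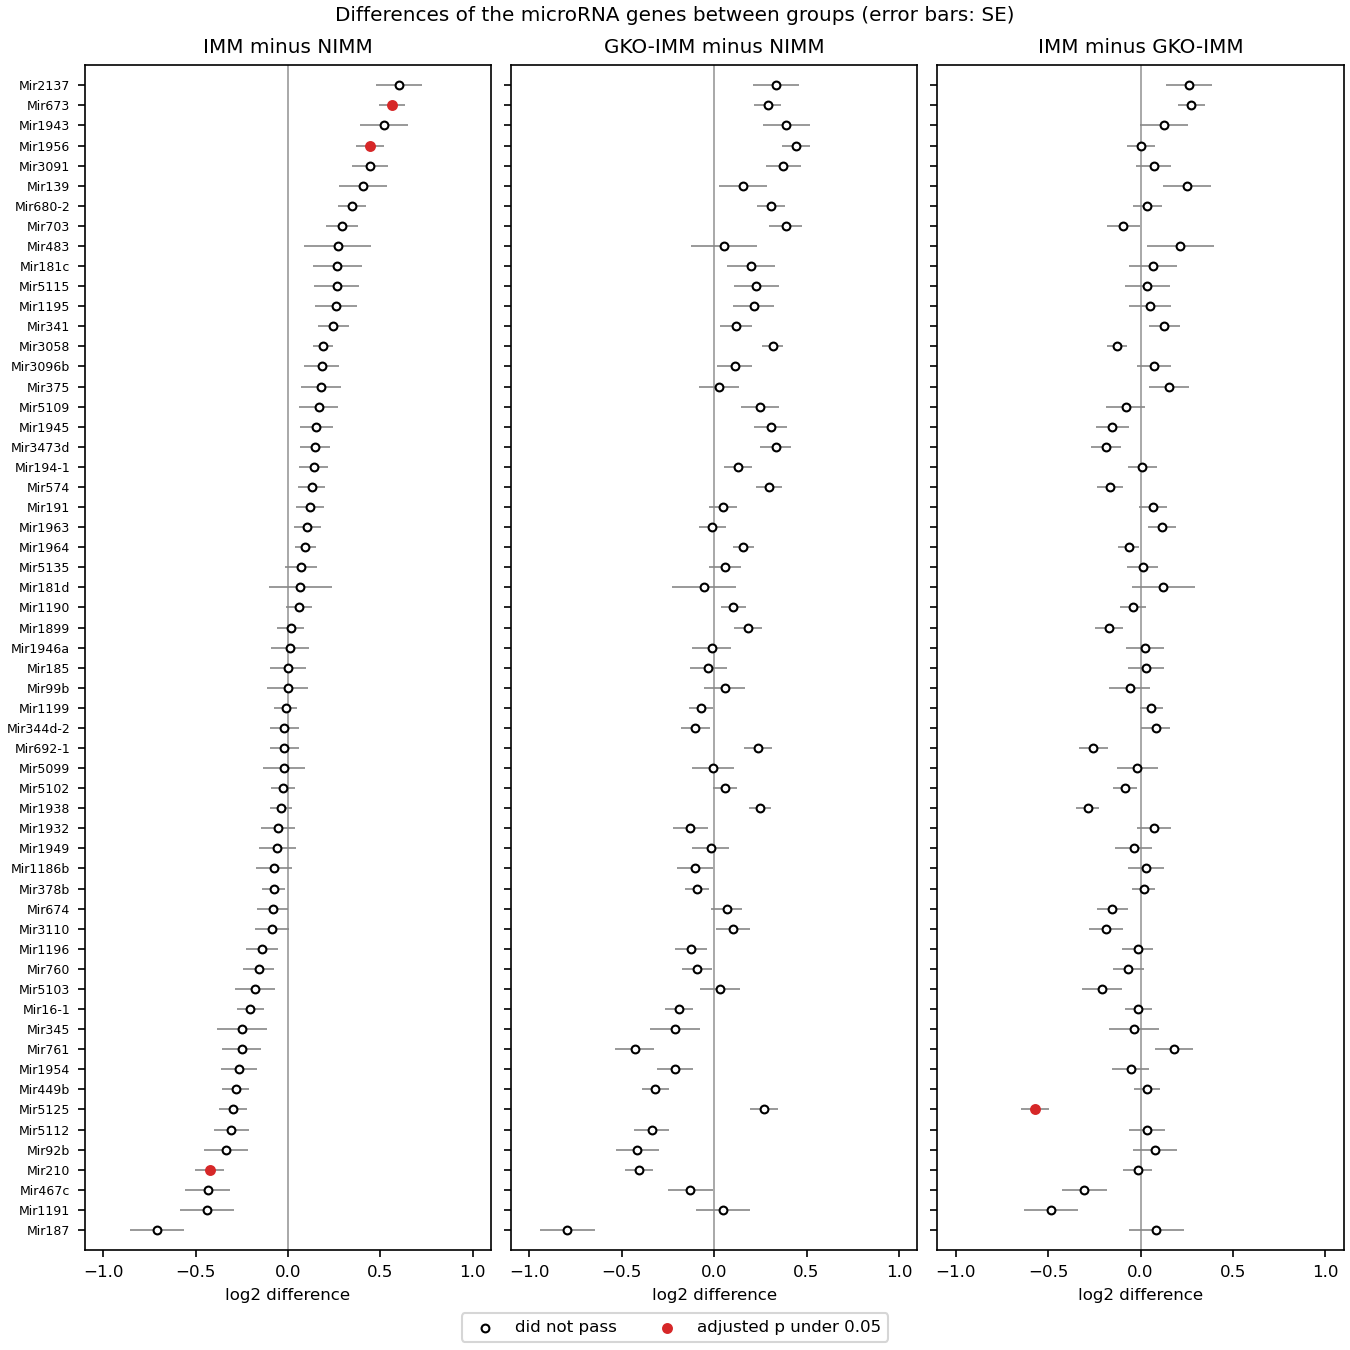
Log2 differences of the 58 microRNA genes between groups, in the order of IMM minus NIMM, with bars for the SE and filled points for an adjusted p under 0.05. The 4 filled points are Mir673, Mir1956 and Mir210 in IMM minus NIMM and Mir5125 in IMM minus GKO-IMM.

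The second comparison set the lines from immunized wild-type mice against those from immunized mice without interferon-γ. Mir5125 was 1.48-fold lower in IMM. It was the 1 gene of 58 (1.72%) that passed, against 1.17% of all genes tested, a share close to the background. The median difference was 0.01 over the 58 genes and 0.01 over all genes tested.

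Mir5125 lies within Srrm2, which encodes a splicing factor of the nuclear speckles. It was at 7.42, 7.40 and 7.59 in NIMM lines 1, 3 and 4, at 7.21, 7.26 and 7.04 in IMM lines 1, 2 and 8, and at 7.79, 7.74 and 7.71 in GKO-IMM lines 1, 2 and 3, with the parent at 7.56. The 3 groups did not overlap: IMM was lowest, NIMM lay between and GKO-IMM was highest. IMM minus GKO-IMM was -0.57 ± 0.08 (SE), with an adjusted p of 0.00654, and this call was kept under all 18 alternative settings (adjusted p 0.000481 to 0.0468). IMM minus NIMM was -0.30 ± 0.08 (adjusted p 0.139) and GKO-IMM minus NIMM 0.27 ± 0.08 (adjusted p 0.181). IMM lay 0.43 below the mean of the other groups, a difference of -0.43 ± 0.06 with an adjusted p of 0.0147. Mir5125 and Mir673 were the 2 genes that passed in that test, where 0.806% of all genes tested passed. Without IMM 8 neither passed it, and the count was 1 without IMM 1 or without GKO-IMM 3, where 0.25%, 0.318% and 0.238% of all genes tested passed.

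The IMM and GKO-IMM lines did not overlap for 10 of the 58 genes (17.2%), against 25.8% of all genes tested. One of these, Mir673, was higher in IMM and the other 9 were lower, where 13.3% and 12.5% of all genes tested were. An unadjusted p under 0.05 was found for 10, while 17.2% of all genes tested had one. After Mir5125, the smallest p-values among genes with lower values in IMM belonged to Mir1938, Mir1191 and Mir692-1. Mir1938, within Ifrd1, was at 5.93 ± 0.06 in IMM and 6.22 ± 0.03 in GKO-IMM, a difference of -0.29 ± 0.06 (adjusted p 0.0513). Mir1191 was at 6.77 ± 0.30 in IMM and 7.25 ± 0.22 in GKO-IMM (adjusted p 0.127). Its IMM lines were at 6.57, 7.12 and 6.62, and the second of these overlapped the GKO-IMM lines. Mir692-1 was at 11.45 ± 0.08 in IMM and 11.70 ± 0.04 in GKO-IMM (adjusted p 0.128). Of genes with higher values in IMM, Mir2137 had a difference of 0.26 (adjusted p 0.309), Mir139 one of 0.25 ± 0.13 (adjusted p 0.355) and Mir761 one of 0.18 ± 0.10 (adjusted p 0.411).

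The third comparison set the lines from immunized mice without interferon-γ against those from naive mice. None of the 58 genes passed in limma's model, in which 0.122% of all genes tested did, while 24 had an unadjusted p under 0.05, against 13.9% of all genes tested. The GKO-IMM and NIMM lines did not overlap for 27 of the 58 genes (46.6%), against 19.5% of all genes tested. Of the 27, 19 were higher and 8 lower in GKO-IMM, where 11.1% and 8.38% of all genes tested were. The median difference was 0.06 over the 58 genes and 0.01 over all genes tested, with 35 above and 23 below 0.

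Mir187 had the widest difference in this comparison, and its range over the 10 arrays (1.20 on the log2 scale) was the widest of the 58 genes. It lies at chr18:24429110-24429170, within the long non-coding RNA gene Gm32547. Its level was 7.61, 7.56 and 7.35 in NIMM lines 1, 3 and 4, then 6.41, 7.01 and 6.97 in IMM lines 1, 2 and 8, and 6.52, 6.75 and 6.86 in GKO-IMM lines 1, 2 and 3, with the parent at 7.26. All 6 lines from immunized mice were below the parent and the NIMM lines. GKO-IMM minus NIMM was -0.80 ± 0.15 (1.74-fold lower, adjusted p 0.0791) and IMM minus NIMM -0.71 ± 0.15 (1.64-fold lower, adjusted p 0.069). Neither passed, and both rest on the same NIMM lines. The F test over the 3 groups passed for Mir187, with an adjusted p of 0.0422.

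Mir3058 lies within Nudt4, a gene for a phosphohydrolase of inositol pyrophosphates. It was at 6.74, 6.71 and 6.69 in NIMM lines 1, 3 and 4, at 6.92, 6.84 and 6.95 in IMM lines 1, 2 and 8, and at 7.03, 7.06 and 7.01 in GKO-IMM lines 1, 2 and 3, with the parent at 6.96. The 3 groups did not overlap, with NIMM lowest and GKO-IMM highest, and the parent was above all NIMM and IMM lines. GKO-IMM minus NIMM was 0.32 ± 0.06 (SE, adjusted p 0.0735) and the F test passed with an adjusted p of 0.0494. In all, 6 of the 58 genes (10.3%) passed the F test, against 1.02% of all genes tested: Mir673, Mir5125, Mir1956, Mir210, Mir187 and Mir3058. That count was 3 without NIMM 1 or without NIMM 3, 1 without GKO-IMM 1 or without GKO-IMM 3, 2 without GKO-IMM 2 and 0 without IMM 8. The share of all genes tested that passed fell as well, from 1.02% to 0.678%, 0.519%, 0.25%, 0.195%, 0.324% and 0.244% in that order.

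Of the other genes with the smallest p-values in GKO-IMM against NIMM, Mir703 was at 9.96 ± 0.16 in NIMM and 10.35 ± 0.07 in GKO-IMM (SD), a difference of 0.39 ± 0.09 (adjusted p 0.125). Mir574 differed by 0.29 ± 0.07 (adjusted p 0.134), with its GKO-IMM lines at 6.74, 6.73 and 6.74. Mir761 differed by -0.43 ± 0.10 (adjusted p 0.134), and Mir449b by -0.32 ± 0.07 (adjusted p 0.12). For each of these 4 genes all GKO-IMM lines were on 1 side of all NIMM lines.

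The naive line NIMM 4 stood apart from the other naive lines over all genes tested, and the count in the third comparison changed most without it. The SD of the difference between lines over all genes tested was 0.125 for NIMM 1 and NIMM 3, 0.229 for NIMM 1 and NIMM 4, and 0.221 for NIMM 3 and NIMM 4. Over the 58 microRNA genes these SDs were 0.189, 0.219 and 0.197 in the same order of pairs. Without NIMM 4, 16 of the 58 genes (27.6%) passed in GKO-IMM against NIMM, 12 higher and 4 lower, while 7.73% of all genes tested passed. The 12 included Mir1956 (0.48, adjusted p 0.00751), Mir703 (0.46, adjusted p 0.0127), Mir3058 (0.31, adjusted p 0.0158) and Mir5125 (0.33, adjusted p 0.0221). The 4 were Mir187 (-0.87, adjusted p 0.00855), Mir5112 (-0.43, adjusted p 0.018), Mir210 (-0.40, adjusted p 0.0192) and Mir761 (-0.49, adjusted p 0.0235). Without NIMM 4, IMM minus GKO-IMM passed for 4 genes (Mir5125, Mir1938, Mir692-1 and Mir673) where 7.38% of all genes passed, IMM minus NIMM for 2 (Mir673 and Mir1956) where 0.464% passed, and the F test for 18 where 8.79% passed. The NIMM group then held 2 lines. Without IMM 1, 1 gene passed in GKO-IMM against NIMM (0.11% of all genes tested), and without IMM 2, 2 passed in IMM against GKO-IMM (1.44% of all genes tested).

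**Figure D3:**
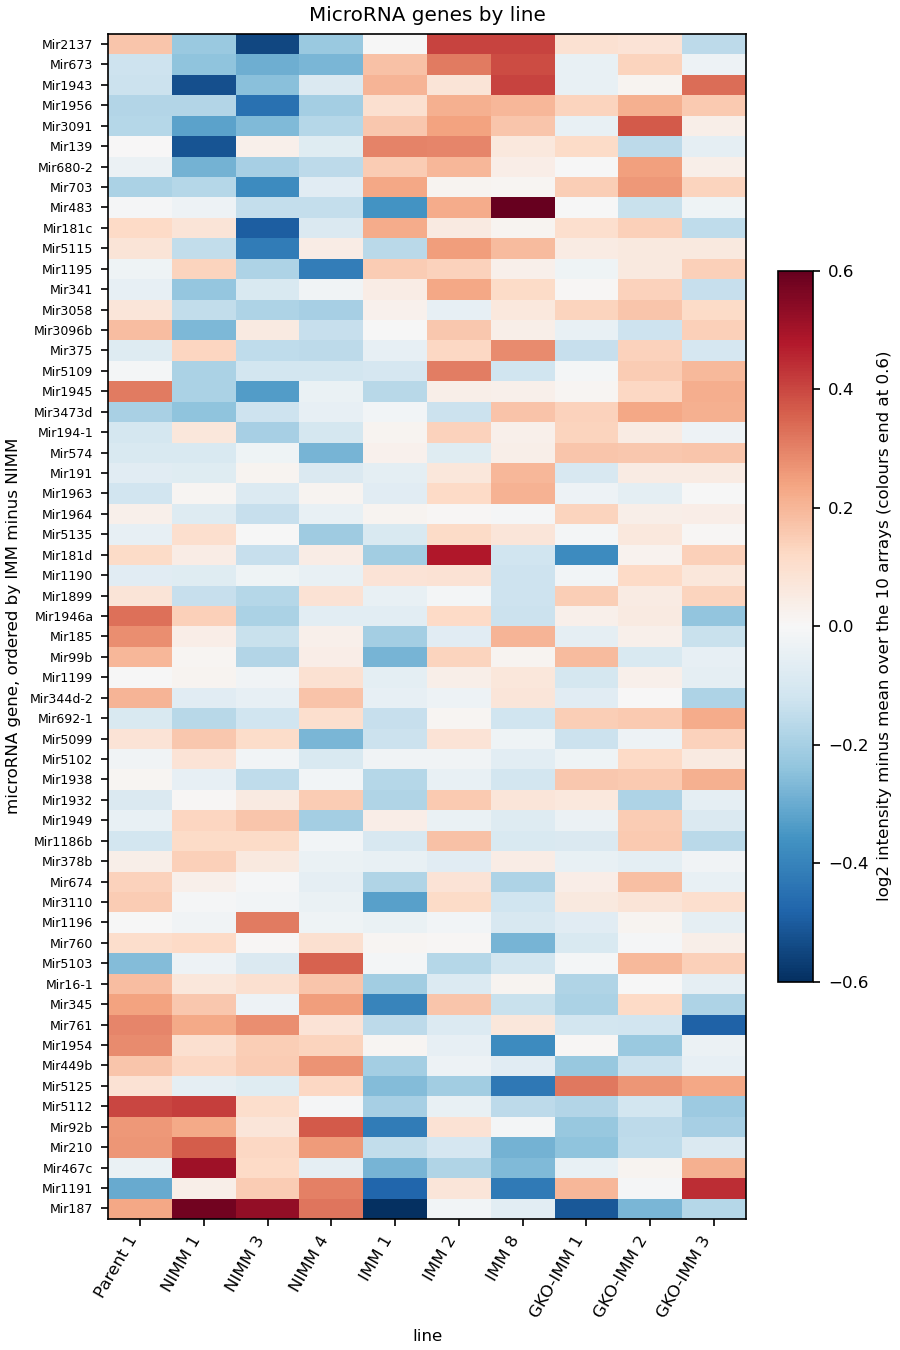
Log2 intensity of each of the 58 microRNA genes in each of the 10 lines, minus the gene's mean over the 10 arrays, in the order of IMM minus NIMM, with colours ending at 0.6. The IMM columns are red at the top and blue at the bottom because of that order, and Mir187 at the bottom is the gene with the widest range (1.20).

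Against the parent, which has 1 array and so allows no test, none of the 58 genes was at least 0.5 log2 units away on the same side in all 9 established lines, against 0.366% of all genes tested. All 9 lines were above the parent for 2 genes, Mir5103 (by at least 0.09) and Mir1963 (by at least 0.03), where 13.4% of all genes tested were. For 10 genes all 9 lines were below the parent, where 12.5% of all genes tested were. The widest smallest distances belonged to Mir1946a (-0.19), Mir1954 (-0.14), Mir1945 (-0.09) and Mir185 (-0.07).

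The 58 genes had a wider spread at the median than all genes tested. Their median residual SD within groups was 0.13 on the log2 scale, against 0.09 over all genes tested, and their median range over the 10 arrays was 0.48, against 0.34. The range was lowest for Mir1199 (0.20). The widest spread within a group belonged to Mir483, which lies within the growth factor gene Igf2. Its IMM lines 1, 2 and 8 were at 6.20, 6.78 and 7.19, whereas its NIMM and GKO-IMM lines were between 6.42 and 6.56. No comparison passed for it (F test adjusted p 0.583). Mir181d also had 1 high line, IMM 2 at 7.22, with the other 9 arrays between 6.36 and 6.88. Its neighbour Mir181c was at 6.22 in that line, within the range of the other arrays. The IMM minus NIMM difference was 0.27 ± 0.13 for Mir181c and 0.07 ± 0.17 for Mir181d, and neither passed.

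By position, 52 of the 58 genes were in the gene table, on 18 chromosomes, with 7 each on chromosomes 7 and 12. Another microRNA gene lay within 10 kb of 12 of them. A gene enclosed 23 of the 52 on the same strand and 3 on the opposite strand, 8 lay within a gene but the tables did not give the strand of 1 or both of the pair, and 18 lay in no other gene. Since an intronic microRNA is usually cut from its host's transcript, the 20 same-strand hosts that were tested were set beside their microRNA genes. Hosts were set by extent and strand alone, and whether each microRNA lies in an intron or an exon was not looked up. None of the 20 hosts passed any test. The median size of the difference was 0.07 in hosts and 0.20 in their microRNA genes for IMM minus NIMM, 0.06 and 0.20 for GKO-IMM minus NIMM, and 0.08 and 0.13 for IMM minus GKO-IMM. Host and microRNA gene had the same sign in 12, 14 and 12 of 20. Some of these hosts, among them Igf2, Ryr1, Pde2a, Zfp185 and Dleu2, had group means under 5.5, the threshold for the microRNA genes. The median residual SD was 0.13 over the 58 genes and 0.09 over all genes tested, and noise adds to the size of a difference. How far low host levels narrowed the host differences, or noise widened those of the microRNA genes, was not tested.

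The hosts of the genes that passed were Srrm2, Eif4e and Nudt4. Srrm2 had a difference of -0.08 ± 0.06 between IMM and GKO-IMM (adjusted p 0.61), where Mir5125 had -0.57. Eif4e encodes the protein that binds the cap of messenger RNAs. It had 0.22 ± 0.06 for IMM minus NIMM (adjusted p 0.2) and -0.01 ± 0.06 for GKO-IMM minus NIMM (adjusted p 0.948), where Mir1956 had 0.45 and 0.44. Nudt4 had 0.27 ± 0.07 for IMM minus NIMM (adjusted p 0.12) and 0.10 ± 0.07 for GKO-IMM minus NIMM (adjusted p 0.51), where Mir3058 had 0.19 and 0.32. Among hosts of other named genes, Ifrd1, a transcriptional co-regulator gene, had -0.57 ± 0.21 for IMM minus GKO-IMM (adjusted p 0.203), where Mir1938 had -0.29, with NIMM 4 at 9.04 and NIMM 1 and 3 at 8.01 and 8.13. Zfp185 differed by 0.06 ± 0.09 for IMM minus NIMM, where Mir2137 had 0.60. Its group means were 4.82 in NIMM and 4.89 in IMM, close to the filter of 4.73, where a difference is hard to see.

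**Figure D4:**
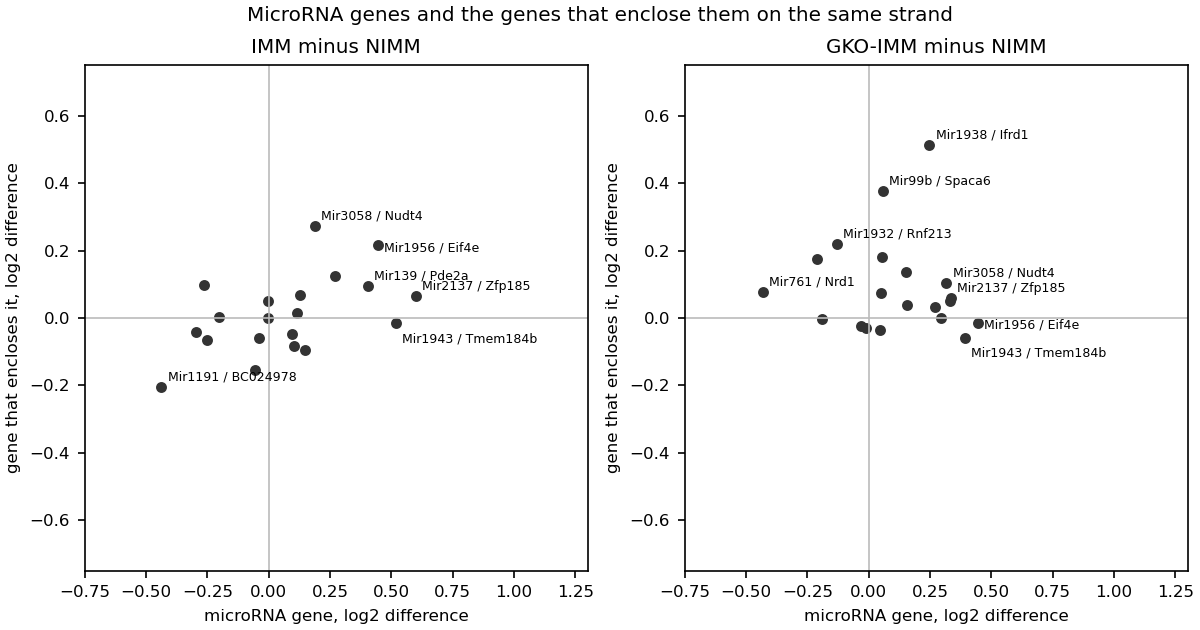
Log2 difference of the 20 tested same-strand hosts (vertical) against that of the microRNA gene each encloses (horizontal), for IMM minus NIMM and GKO-IMM minus NIMM, with pairs named at the edges. The points spread more widely along the horizontal axis, with the highest host at 0.27 on the left and 0.51 (Ifrd1) on the right.

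In the Dlk1-Dio3 region of chromosome 12, 41 microRNA genes were on the array. Mir673 and Mir341 were the 2 of these above the threshold, and the highest mean among the rest was 5.48 (Mir666). Of the 14 that were bright enough to be tested, 1 passed in IMM against NIMM (Mir673) and 1 in GKO-IMM against NIMM (Mir665, 0.49, adjusted p 0.04), where 0.427% and 0.122% of all genes tested passed. The region was taken up after these values were seen and holds Mir673 itself, so these counts are a description and no further support. The median difference over the 14 was 0.11 for IMM minus NIMM, 0.06 for IMM minus GKO-IMM and 0.05 for GKO-IMM minus NIMM. Mir673 is part of these medians too. Mir341, within the non-coding RNA gene Rian, had 0.25 for IMM minus NIMM (adjusted p 0.26). Meg3, the non-coding RNA gene just upstream of Mir673, had a difference of 0.01 in that comparison, and Dlk1, further upstream, 0.05. Their means were low, at 4.93 and 5.04, close to the filter of 4.73, so that a difference is hard to see. Rian, with a mean of 4.46, was not tested. By the gene table Mir673 lies within the extent of Rtl1, which was not tested.

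The 58 genes had hairpins richer in G and C than the rest. The median GC content was 59.7% (quartiles 53.9% and 62.7%) over the 42 with a hairpin sequence, against 47.4% (quartiles 42.2% and 52.9%) over 333 microRNA genes under the threshold. Median lengths were close, at 80.5 and 83 bases. Of hairpins with at least 60% GC, 21 of 43 (48.8%) were above the threshold. The share was 12% (15 of 125) from 50% to 60% GC and 2.90% (6 of 207) under 50%. Among the hairpins printed above, GC content was 61.5% for Mir673, 55.7% for Mir5125, 67.7% for Mir1956, 69.1% for Mir210 and 53.8% for Mir3058. Levels of different probes depend on base composition as well as on RNA, and the part of each was not tested.

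**Figure D5:**
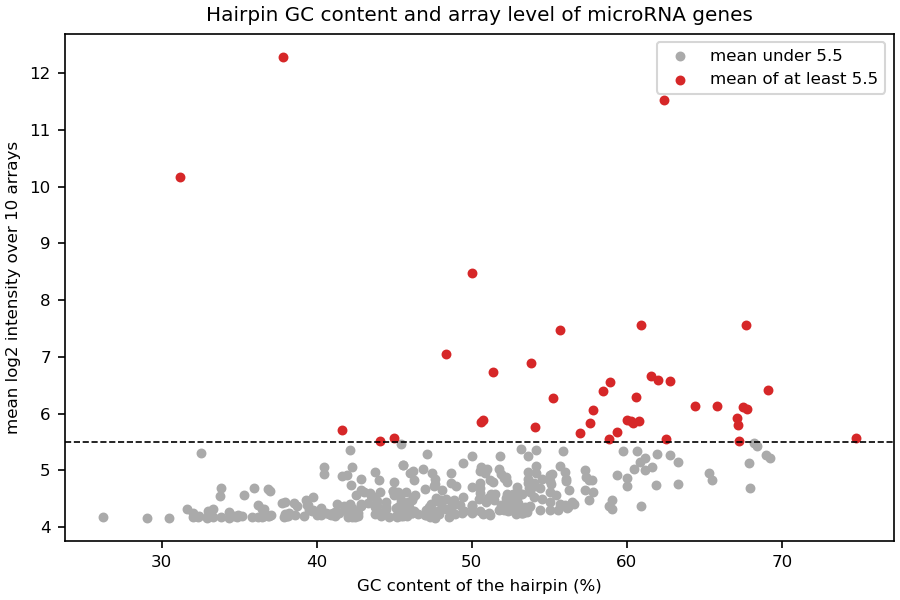
Mean log2 intensity over the 10 arrays (vertical) against the GC content of the hairpin (horizontal) for the 42 microRNA genes above and 333 under the threshold, the threshold of 5.5 being a dashed line. The genes above the line lie mostly to the right, and their GC contents run from 31.2% to 74.8%.

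Few genes of the lists of known microRNAs were among the 58, and some could not be, because their transcript cluster carries several symbols. Some listed symbols are an older and a newer name of the same gene, such as Mir21 and Mir21a. Of 17 symbols of the growth-promoting clusters around Mir17, 10 had a transcript cluster of their own, with means from 4.19 to 5.01, and none was above the threshold, while 5 were only in shared clusters. None of 21 genes with a cluster of their own known from pigment cells was above it either, and 2 of that list were only in shared clusters. Mir211, which lies in the melanocyte gene Trpm1, had a mean of 4.83, and the highest mean of that list was 5.38 (Mir30d). Of 39 symbols known from tumours and immune cells, 27 had a cluster of their own, of which Mir210 and Mir16-1 were above the threshold, and 10, among them Mir21 and Mir155, were only in shared clusters. Mir16-1, whose microRNA is known to lower cyclins and the survival factor Bcl2, had 5.63 ± 0.05 in NIMM, 5.42 ± 0.11 in IMM and 5.44 ± 0.09 in GKO-IMM (SD). Its NIMM lines were above all 6 other established lines, but IMM minus NIMM (-0.20 ± 0.07, adjusted p 0.269) did not pass. Mir15a of the same list, with a mean of 5.24, had the opposite sign in that comparison (0.15 ± 0.06, adjusted p 0.342). Dleu2, the host of Mir16-1, differed by 0.0020 for IMM minus NIMM, at a low level of 4.89 in both groups. None of 6 genes known from epithelial cells was above the threshold.

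None of the tested genes that make and carry microRNAs passed a test among the groups. Of 36 symbols of this kind, 25 were tested. Some of the 36 are an older and a newer name of the same gene, such as Eif2c2 and Ago2. Their differences were from -0.14 to 0.16 for IMM minus NIMM, from -0.26 to 0.26 for IMM minus GKO-IMM and from -0.14 to 0.21 for GKO-IMM minus NIMM. The smallest F test p-values were those of Dis3l2, an exonuclease for tailed precursors (adjusted p 0.125), Tnrc6c, an Argonaute partner (adjusted p 0.291), the Argonaute gene listed as Eif2c2 (adjusted p 0.3) and Srrt, which ties the cap-binding complex to Drosha (adjusted p 0.31).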

How the data were processed

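Trizol-extracted RNA of 10 lines was hybridised as biotinylated cRNA to MoGene-2_0-st arrays, per the labels' protocols. The deposited table gives a raw and a normalized column per array, per the file headers. The deposited raw columns are linear intensity per transcript cluster. The deposited normalized values were log2 intensity minus the median of each of 33793 transcript clusters (largest difference 2.23e-06). How the authors corrected background and summarized probes, and with which software, is not given in the sources used here. Array medians were 31.9 to 32.5 and the lowest intensity 17.3, and correlations between arrays were 0.989 to 0.998.

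The log2 of the deposited intensity was analysed. Each gene with 1 symbol was represented by its transcript cluster with the highest mean, and genes under percentile 30 of the mean (log2 4.73) were left out, which left 16375 of 23393. All 58 microRNA genes and 104 of the 419 under 5.5 were tested. The 9 established lines were fitted with limma 3.58.1 (lmFit, eBayes) in R 4.3.3, with 6 residual and 5.25 prior degrees of freedom. All tests were two-sided, with p-values adjusted by Benjamini-Hochberg over all genes. The procedure was tested on simulated data. Tables were made with Python 3.11.15, numpy 2.4.6 and pandas 2.3.3, and figures with matplotlib 3.10.9. Alternatives were other scalings, filters, an offset, every transcript cluster, trend and robust estimation, a block on the line number, only the groups compared, a higher threshold and each line left out.

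Genes were named if they passed any of the 5 tests, had 1 of the 4 smallest p-values in each direction of a pairwise comparison, were in the lists of known microRNAs, lay next to the threshold, enclosed a named gene, or had 1 of the 4 widest distances from the parent in each direction. Mir483, Mir181c, Mir181d, Mir5112, Mir1199 and the genes of the Dlk1-Dio3 region were named after their values were seen. The microRNA genes and lists were chosen with earlier results of these data known.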

Additional observations from a re-analysis of the deposited data

How the results depend on the processing

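No difference followed under the alternatives changed sign. Those followed had a call or 1 of the 4 smallest p-values in their direction, so this says nothing of other differences. Of 466 values of named genes under alternatives, 407 kept their side of the threshold, 34 lost a call and 25 gained one. The 407 include values of results that did not pass, so they do not measure how stable the calls were. In IMM against NIMM, the call was lost under 15 of 18 alternatives for Mir210 and 12 of 18 for Mir1956. In IMM against the mean of the others, it was lost under 3 of 17 each for Mir673 and Mir5125. The call of Mir673 in IMM against NIMM was kept under 17 of 18, and lost with the line number as a block (0.43, adjusted p 0.157). That block takes 1 NIMM line and 1 IMM line out of the comparison, as described below. The count of genes that passed in IMM against NIMM (3) was 1 without a filter, 1 with 48 added before log2 and 1 with only the groups compared, each time Mir673. In IMM against GKO-IMM (1) it was 2 with arrays centred on their medians, 2 with the filter at percentile 50 and 4 with only the groups compared. In GKO-IMM against NIMM (0) it was 1 with only the groups compared. With each line left out in turn, the counts were 1 to 2 for IMM against NIMM, 1 to 4 for IMM against GKO-IMM, 0 to 16 for GKO-IMM against NIMM, 0 to 3 for IMM against the mean of the others and 0 to 18 for the F test. The cause of these shifts was not tested. A threshold of 6 left 36 genes and the same counts. Use of only the groups compared has no counterpart for the tests over 3 groups. The number of arrays limits what could be detected, and dim genes near 17.3 have no order.

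Some lines share a number in the labels. The correlation of deviations between lines of the same number was from -0.135 to 0.12 over genes, so that the lines share only a number and nothing shows a pairing. For 1 NIMM line and 1 IMM line, the number is shared with no other line. A block gives such a number a term of its own, so these lines add nothing to the group differences. The block fit therefore rests on fewer lines and cannot decide whether a pairing matters. With the replicate number as a block, 2 genes passed in IMM against NIMM (Mir187 and Mir1943, none of the 3 named). In that fit 1 passed in IMM against GKO-IMM and 11 in GKO-IMM against NIMM. In IMM against the mean of the others 0 passed, and in the F test 9. Of all genes, 29, 586, 928, 88 and 929 passed in the same order of tests.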
